A study of Mus musculus with 24 samples.

Results

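The 7 genes described here mark the split of T cells into the CD4+ and CD8+ lineages: the coreceptor genes Cd4, Cd8a and Cd8b1, and the transcription factor genes Zbtb7b, Runx3, Gata3 and Satb1. They were listed by name among 35817 gene symbols and not ranked by their values, though earlier results of these data were known. They were read as the lineage identity of the sorted cells in 24 RNA sequencing libraries, 3 in each of 8 groups. The cells were described as spleen T cells, labelled CD8+ or CD4+, of Cat-Tg or Wild type (WT) donor mice on the C57BL/6 background. Cat-Tg mice are heterozygous for a human β-catenin that lacks its N-terminal end, driven by the proximal promoter of lck, which is active in developing T cells. Their founders were made in FVB mice and crossed back to C57BL/6. Pre-tx libraries hold cells sorted from the fresh spleens of 3 donor mice of each genotype. Post-tx libraries hold donor cells sorted by their H-2Kb on day 7 from the spleens of 3 lethally irradiated BALB/c recipients per group. These recipients had received CD4+ and CD8+ donor T cells in equal parts together with WT bone marrow depleted of T cells, so the irradiated allogeneic host and the WT marrow are shared by both post-tx genotypes. Donor mice were matched for age and sex.

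CD4 binds MHC class II, and the CD8 dimer, made from Cd8a and Cd8b1, binds MHC class I. Both bring the kinase Lck to the T cell receptor. Thymocytes carry both coreceptors at once, and mature cells keep CD4 or CD8. Zbtb7b, which encodes ThPOK, is needed for the CD4+ fate, and Runx3 is needed for the CD8+ fate, in which it silences Cd4. Each of these factors restrains the other. Gata3 acts upstream of Zbtb7b in the thymus and directs the T helper 2 programme in mature cells. Satb1 organizes chromatin and enhancer use at several of these loci.

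The smallest library held 11135713 estimated counts, the middle of the range lay at 27062440 and the largest held 50519825. In these libraries 3 counts amount to between 0.0594 and 0.269 CPM, the counts scaled by library size, a floor that covers counting error only. Levels are CPM with library sizes scaled by TMM (a trimmed mean of ratios) unless they are given as TPM, the kallisto unit of transcript abundance, which is per length and was used to set genes beside each other. All 7 genes passed the filter of more than 1 CPM in at least 3 libraries in every fit. A gene was called where its adjusted p was at most 0.05 in edgeR's quasi-likelihood test, with Benjamini-Hochberg adjustment over all genes tested. The description labels of the 12 Cat-Tg libraries begin with other letters than those of the 12 WT libraries; what the letters stand for is not given, and they cannot be told apart from genotype.

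The 6 WT pre-tx libraries went against their labels. Libraries labelled CD8+ and libraries labelled CD4+ held Cd4 and Cd8a side by side, at levels that overlapped. A list of 14 B cell genes, among them Cd79a and Ms4a1, summed to between 5980 and 7085 CPM in libraries labelled WT CD8+ pre-tx and to between 7447 and 9219 CPM in libraries labelled WT CD4+ pre-tx. The same sum ran from 203 to 706 CPM in Cat-Tg pre-tx libraries and from 45.1 to 115 CPM in all post-tx libraries. A list of 12 T cell genes, among them Cd3e and Lck, moved the other way, with 1975 to 3540 CPM in WT pre-tx libraries and 5427 to 16411 CPM in the other 18. None of the 14 B cell genes was at or under 3 counts in all 3 libraries of any group. Replicates were separate mice, and p-values measure the spread between these samples. Both cell types were sorted from each mouse, and the labels do not say which CD8+ and CD4+ libraries share a mouse. In bulk RNA, fewer cells of a type and less RNA per cell cannot be told apart. The part of other cells in the WT pre-tx values below was not tested. Myeloid genes (12 genes) summed to between 184 and 5137 CPM, red cell genes (6 genes) to between 252 and 26876 CPM, natural killer genes (6 genes) to between 59.8 and 1065 CPM and dendritic cell genes (7 genes) to between 50.1 and 453 CPM across all libraries.

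The coreceptor genes separated the CD8+ and CD4+ libraries of 3 of the 4 pairs of groups by log2 fold changes over 6, and did not separate the WT pre-tx pair. Cd4 stood at 1.05, 3.9 and 0.643 CPM in the Cat-Tg CD8+ pre-tx libraries and at 344, 201 and 286 CPM in the Cat-Tg CD4+ pre-tx libraries. After transplantation it stood at 1.04, 5.09 and 3.61 CPM in Cat-Tg CD8+ cells and at 753, 800 and 881 CPM in Cat-Tg CD4+ cells. The corresponding WT post-tx values were 4, 4.29 and 1.04 CPM in CD8+ cells and 967, 815 and 1061 CPM in CD4+ cells. In each of these pairs the highest CD8+ library lay far below the lowest CD4+ library. The libraries labelled WT CD8+ pre-tx held Cd4 at 81.1, 93.1 and 107 CPM, and those labelled WT CD4+ pre-tx at 70.7, 141 and 75.5 CPM, so that the groups overlapped.

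Cd8a gave the mirror image. It stood at 916, 528 and 855 CPM in Cat-Tg CD8+ pre-tx libraries and at 8.79, 7.05 and 3.69 CPM in their CD4+ counterparts. Post-tx, Cat-Tg libraries held 638, 728 and 727 CPM in CD8+ cells and 3.76, 2.35 and 1.47 CPM in CD4+ cells, and WT libraries held 379, 712 and 547 CPM in CD8+ cells and 3.94, 5.21 and 0.95 CPM in CD4+ cells. No library of a CD8+ group came near a CD4+ library in these pairs. Libraries labelled WT CD8+ pre-tx held 143, 93 and 149 CPM and those labelled WT CD4+ pre-tx 134, 155 and 140 CPM of Cd8a, again overlapping. Cd8b1, which encodes the β chain that makes CD8 an efficient coreceptor, followed Cd8a. Its levels were 2451, 1627 and 2514 CPM in Cat-Tg CD8+ pre-tx, 1978, 2227 and 2087 CPM in Cat-Tg CD8+ post-tx and 1212, 1712 and 1395 CPM in WT CD8+ post-tx libraries. In the CD4+ libraries of the same 3 pairs it ran from 10.1 to 31 CPM, and in the 6 WT pre-tx libraries from 246 to 303 CPM.

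**Figure D1:**
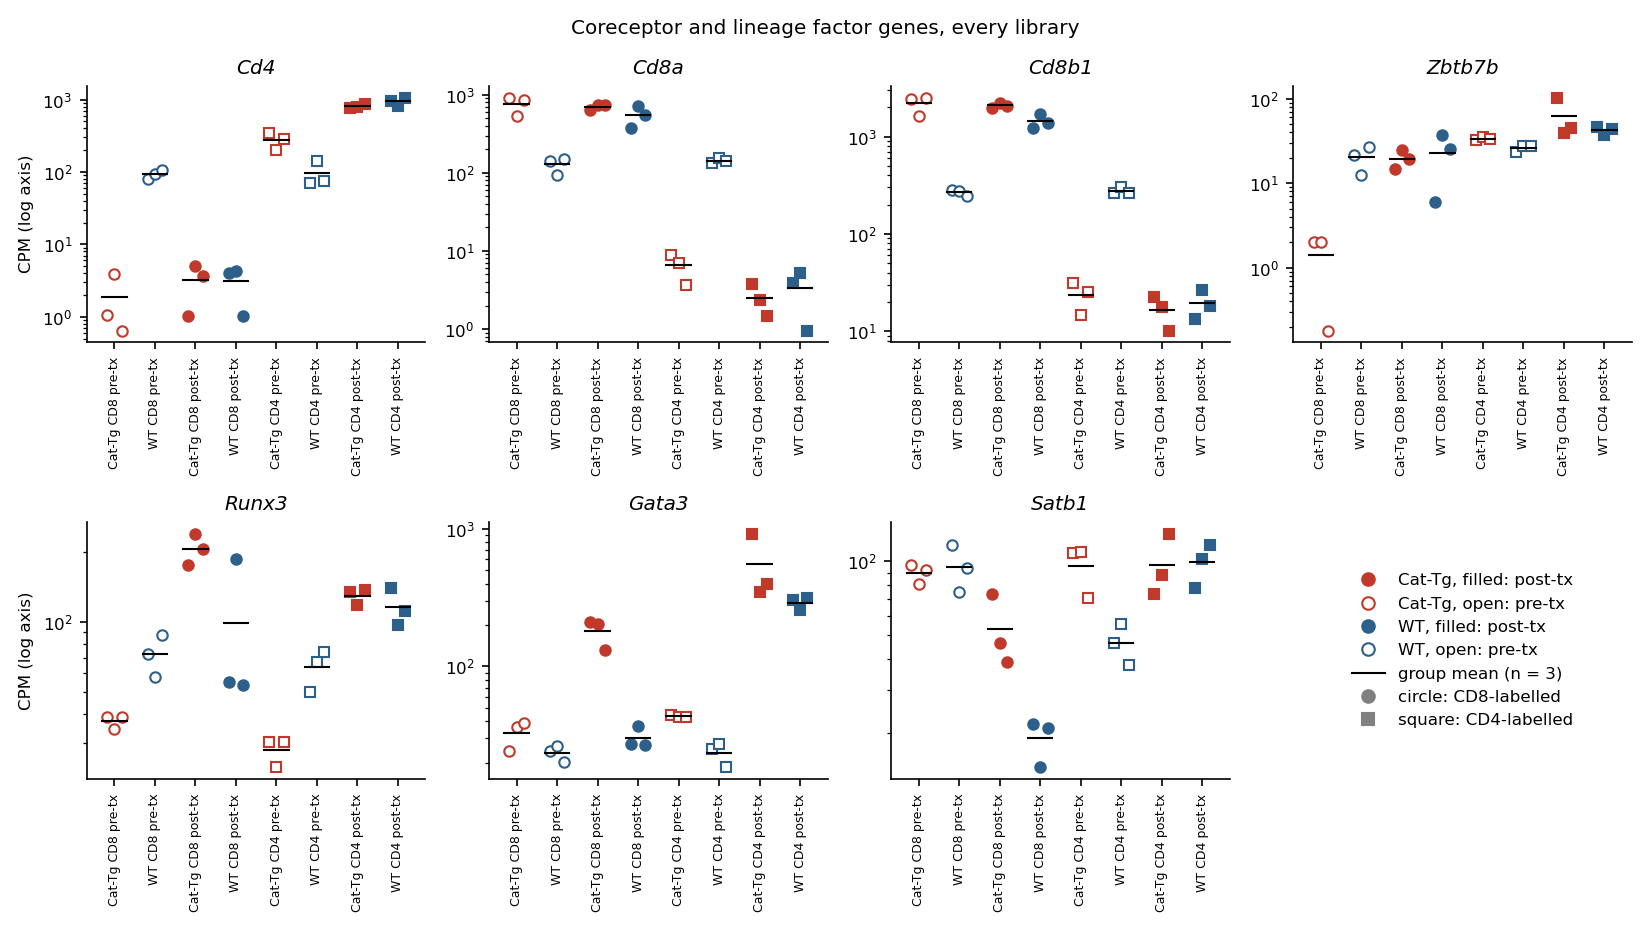
CPM on a log axis for the 7 genes in every library, with 3 points and a line at the mean for each of the 8 groups; circles are CD8-labelled, squares CD4-labelled, red Cat-Tg, blue WT, open pre-tx and filled post-tx. The open blue symbols of Cd4, Cd8a and Cd8b1 lie between the CD8+ and CD4+ groups, and Gata3 in Cat-Tg CD8+ post-tx cells (132 to 209 CPM) lies above WT CD8+ post-tx cells (27 to 37 CPM).

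**Figure D2:**
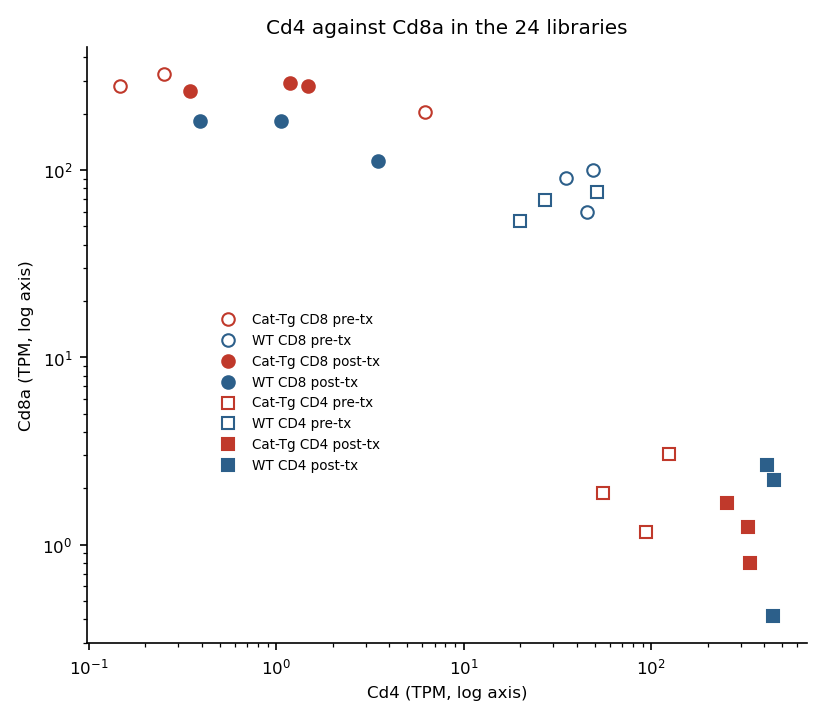
Cd4 against Cd8a, both in TPM on log axes, with 1 point for each of the 24 libraries. The 9 CD8+ libraries outside WT pre-tx sit at the upper left, the 9 CD4+ libraries at the lower right, and the 6 WT pre-tx libraries between them, with Cd4 at 20 to 51.2 TPM and Cd8a at 53.8 to 99.8 TPM.

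The fold changes between CD8+ and CD4+ libraries were tested in a fit of all 24 libraries. In Cat-Tg pre-tx cells the log2 fold change was -7.21 ± 0.689 (SE) for Cd4, 6.88 ± 0.555 for Cd8a and 6.54 ± 0.395 for Cd8b1, with edgeR adjusted p of 6.12e-07, 5.87e-08 and 2.19e-10. In Cat-Tg post-tx cells it was -7.97 ± 0.707 for Cd4, 8.16 ± 0.591 for Cd8a and 6.98 ± 0.403 for Cd8b1, and in WT post-tx cells -8.27 ± 0.719, 7.34 ± 0.567 and 6.22 ± 0.389. All 9 of these differences were called, and without the 6 WT pre-tx libraries in the fit they ran from -8.48 to -7.23 for Cd4 and from 6.01 to 8.14 for the CD8 genes, with the same calls. In WT pre-tx libraries the log2 fold changes were -0.03 ± 0.52 for Cd4, -0.15 ± 0.429 for Cd8a and -0.03 ± 0.31 for Cd8b1, and none passed the test. Cd4, Cd8a and Cd8b1 are the transcripts of the proteins by which the cells were sorted, so for them these tests check the labels. Of the 7 genes, 4 were called in Cat-Tg pre-tx, where 1.53% of the 19076 genes tested were called. In Cat-Tg post-tx 4 were called against 6% of all genes, in WT post-tx 5 against 13.1%, and in WT pre-tx 0 against 0.0367%. These counts include the 3 coreceptor genes wherever those were called. The factors called were Zbtb7b in Cat-Tg pre-tx, Gata3 in Cat-Tg post-tx, and Gata3 and Satb1 in WT post-tx. The WT pre-tx count was 0 in edgeR and in limma-voom; 1 of the 7 genes, Satb1, had an unadjusted p under 0.05 there (0.00368, adjusted p 0.188), and it was called by DESeq2 (adjusted p = 0.027) and with library sizes taken from the list of 12 T cell genes, the T cell scaling (1.68, adjusted p = 0.0319).

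As a single measure of lineage, the share of Cd8a in the summed TPM of Cd4 and Cd8a was taken in each library. It was 99% ± 1.68 (SD, n = 3) in Cat-Tg CD8+ pre-tx, 99.6% ± 0.202 in Cat-Tg CD8+ post-tx and 98.7% ± 1.54 in WT CD8+ post-tx libraries. The CD4+ libraries gave 2.31% ± 1.03 in Cat-Tg pre-tx, 0.424% ± 0.212 in Cat-Tg post-tx and 0.406% ± 0.282 in WT post-tx. Libraries labelled WT CD8+ pre-tx gave 65.4% ± 7.72 (57% to 72.2%) and libraries labelled WT CD4+ pre-tx 68.2% ± 7.14 (60% to 72.9%). With Cd8a read from its protein-coding transcripts alone, these last shares were 32.3% ± 3.25 and 37.7% ± 8.19. The CD8-labelled and CD4-labelled WT pre-tx libraries overlapped on either reading.

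**Figure D3:**
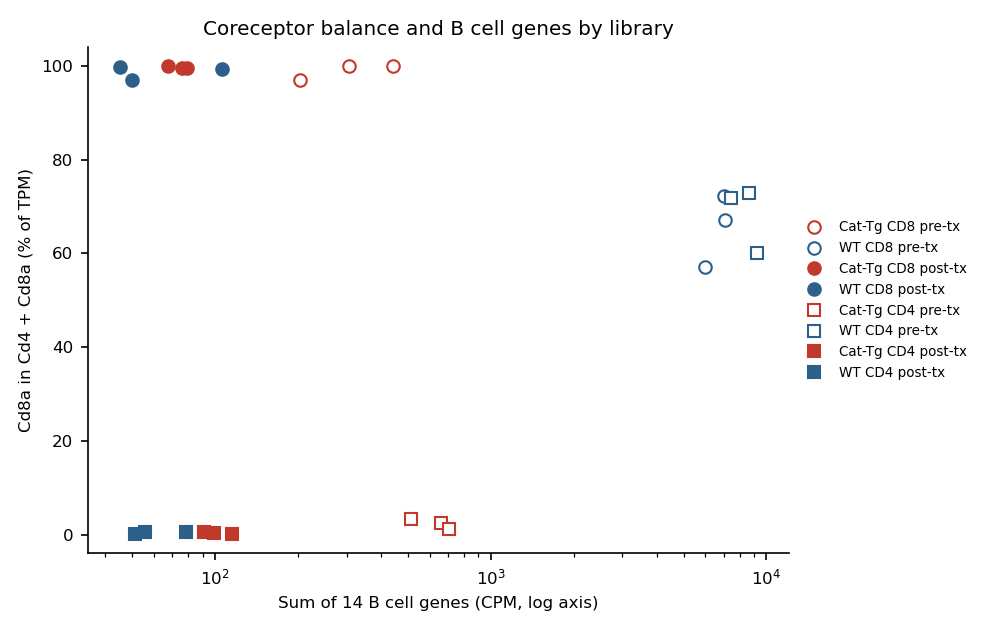
The share of Cd8a in Cd4 plus Cd8a (percent of TPM, linear axis) against the summed CPM of 14 B cell genes (log axis), with 1 point for each library. The 6 WT pre-tx libraries stand apart on both axes, at 57% to 72.9% and 5980 to 9219 CPM, whatever their CD8 or CD4 label.

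The CD8 genes kept a like ratio to each other where both were abundant. Per length, Cd8b1 was 4.71 ± 0.349 (SD, n = 3) times Cd8a in Cat-Tg CD8+ pre-tx, 4.94 ± 0.242 times in Cat-Tg CD8+ post-tx and 4.36 ± 0.689 times in WT CD8+ post-tx libraries. It was 3.57 ± 1.18 times in libraries labelled WT CD8+ pre-tx and 3.19 ± 0.0567 times in those labelled WT CD4+ pre-tx. Part of this ratio depends on how reads were assigned to transcripts. Cd8a lies on chromosome 6 (GRCm38, 71373427 to 71379173 on the + strand), beside Cd8b1 (71322788 to 71337494, + strand). Of its 3 annotated transcripts, Cd8a-203 retains an intron and encodes no protein by the annotation. This transcript held from 57% to 68.3% of the estimated Cd8a counts in the 15 CD8+ or WT pre-tx libraries. Protein-coding Cd8a alone averaged 265, 267 and 186 CPM in Cat-Tg CD8+ pre-tx, Cat-Tg CD8+ post-tx and WT CD8+ post-tx, beside 766, 698 and 546 CPM for the whole gene.

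Among the lineage factors, Zbtb7b was called higher in CD4+ than in CD8+ cells in Cat-Tg pre-tx. It stood at 2.04, 2.01 and 0.179 CPM in Cat-Tg CD8+ pre-tx libraries and at 32.4, 34.9 and 33.5 CPM in Cat-Tg CD4+ pre-tx libraries, a log2 fold change of -4.58 ± 0.685 (SE, edgeR adjusted p = 0.000293). These groups were far apart. Post-tx the CD8+ libraries held 14.9, 24.6 and 19.2 CPM and the CD4+ libraries 103, 39.6 and 45.1 CPM in Cat-Tg, and the difference of -1.68 ± 0.597 did not pass (adjusted p = 0.105), although the groups did not overlap and the difference was called by DESeq2 (-1.71, adjusted p = 0.0433), on the T cell scaling (-2.42, adjusted p = 0.009) and in a fit of the libraries compared (-1.76, adjusted p = 0.0251). In WT post-tx cells Zbtb7b ran at 5.96, 37.4 and 25.1 CPM in CD8+ and 46.4, 37.2 and 43.3 CPM in CD4+ libraries, which overlapped, with a difference of -0.89 ± 0.586 (adjusted p = 0.374) that was -1.80 and called on the T cell scaling (adjusted p = 0.0333). The change of the CD8-CD4 difference from pre-tx to post-tx in Cat-Tg cells was 2.91 ± 0.852 with an adjusted p of 0.127 in edgeR. DESeq2 put the adjusted p of that change at 0.0364. The libraries labelled WT pre-tx held 21.3, 12.6 and 27.1 CPM (CD8+) and 23.5, 27.6 and 27.5 CPM (CD4+).

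Runx3 was not called between CD8+ and CD4+ libraries in any of the 4 pairs with TMM scaling. In Cat-Tg pre-tx it stood at 39.1, 34.7 and 39.1 CPM in CD8+ and 30.5, 23.7 and 30.4 CPM in CD4+ libraries, a log2 difference of 0.42 ± 0.364 (SE, edgeR adjusted p = 0.868). In Cat-Tg post-tx it stood at 176, 238 and 205 CPM in CD8+ and 134, 118 and 137 CPM in CD4+ libraries, a difference of 0.67 ± 0.363 (adjusted p = 0.325) that turned to -0.13 when library sizes were taken from the T cell list. In CPM, every Cat-Tg CD8+ library was above every Cat-Tg CD4+ library of its time point. As a percent of the T cell list, the Cat-Tg groups overlapped at both times. CD8+ and CD4+ libraries ran from 0.37 to 0.418 and from 0.282 to 0.427 pre-tx. Post-tx they ran from 1.68 to 2.14 and from 1.88 to 2.18. WT post-tx CD8+ libraries were unequal, at 55.3, 187 and 53.3 CPM, beside 140, 97.3 and 111 CPM in CD4+ libraries. That difference was -0.24 ± 0.362 (adjusted p = 0.751) and became 0.25 or 0.17 without the first or the third WT CD8+ post-tx library. On the T cell scaling it was -1.13 and called, lower in CD8+ cells (edgeR adjusted p = 0.0143). WT pre-tx libraries held between 49.7 and 87.9 CPM under either label.

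Runx3 counts were assigned almost wholly to the transcript that begins at the distal start. The gene lies on chromosome 4, on the + strand (GRCm38), and M21 gives a long transcript, Runx3-201, from 135120652 to 135177990, and a shorter one, Runx3-202, from the proximal start at 135152496. The distal start is known from CD8+ T cells, and the proximal start is used in other blood cells. Runx3-201 held 68880 of the estimated counts over all libraries and Runx3-202 held 456. The annotation ends Runx3-202 at 135176181, before the end of Runx3-201, so reads from beyond it can be assigned to Runx3-201 whichever start was used. Which start was used was not tested. The median share of Runx3-201 in a library was 99.5%, and the lowest was 90.2%, in 1 Cat-Tg CD4+ post-tx library where Runx3-202 had 131 counts. In Cat-Tg pre-tx, Runx3-201 held 99.3% to 100% in CD4+ and 99.7% to 100% in CD8+ libraries. In Cat-Tg post-tx it held 90.2% to 99.3% in CD4+ and 99.5% to 99.8% in CD8+ libraries, with no overlap. In WT post-tx the shares overlapped, at 98.9% to 99.9% in CD4+ and 99.2% to 99.9% in CD8+ libraries. The promoter letters upstream of these starts show how different they are. RefSeq (GRCm38.p6) gave 300-base windows, 250 bases before to 50 after a start, for 5 of the 7 genes. Below are the first 200 bases of each of the Runx3 windows, which end 51 bases before the RefSeq start, and those of 1 Zbtb7b start and of the Gata3 start; capitals mark the RUNX core letters ACCACA or their reverse complement TGTGGT.
Runx3 distal, chr4:135120395-135120594, + strand: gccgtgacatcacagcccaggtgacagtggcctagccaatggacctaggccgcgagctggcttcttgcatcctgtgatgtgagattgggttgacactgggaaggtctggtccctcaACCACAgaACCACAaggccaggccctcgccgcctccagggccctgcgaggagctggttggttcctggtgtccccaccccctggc
Runx3 proximal, chr4:135152295-135152494, + strand: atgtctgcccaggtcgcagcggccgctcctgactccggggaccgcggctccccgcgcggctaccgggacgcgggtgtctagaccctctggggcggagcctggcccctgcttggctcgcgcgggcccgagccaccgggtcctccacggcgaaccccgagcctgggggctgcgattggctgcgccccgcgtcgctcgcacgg
Zbtb7b, chr3:89387722-89387921, - strand: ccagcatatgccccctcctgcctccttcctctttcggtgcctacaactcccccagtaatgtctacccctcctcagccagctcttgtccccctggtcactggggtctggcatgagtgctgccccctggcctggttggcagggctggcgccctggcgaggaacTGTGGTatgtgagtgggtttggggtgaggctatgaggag
Gata3, chr2:9878651-9878850, - strand: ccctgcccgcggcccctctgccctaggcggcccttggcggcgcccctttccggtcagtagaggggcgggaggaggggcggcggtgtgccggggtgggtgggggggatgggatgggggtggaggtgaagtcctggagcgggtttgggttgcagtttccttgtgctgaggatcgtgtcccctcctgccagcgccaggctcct

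The 2 distal Runx3 matches begin 134 and 126 bases before the start, and the Zbtb7b match 89 bases before its start. RUNX core letters were found, on either strand, in 2 of the 11 windows of these genes and in 16.8% of all 32851 windows of the table; 1.81% held 2 or more, as the distal Runx3 window does. The TCF/LEF core CTTTGA, the letters bound by the partners of β-catenin, and the letters AGATAA of GATA factors were in none of the 11 windows, against 16% and 11.2% of all windows. The printed distal stretch is 63.5% G and C with 6 CpG, and the proximal stretch 77% with 28 CpG. The Gata3 stretch lies within an exon of Gm13256-201, and the distal Runx3 stretch shares 53 bases with an exon of Gm16225-201. Both exons are on the other strand, and the library kit does not mark strand. The printed Zbtb7b stretch belongs to the start of Zbtb7b-204. How the Zbtb7b isoforms divided the counts varied widely within some groups, with Zbtb7b-203 from 1.09% to 69.8% in Cat-Tg CD4+ pre-tx. In both post-tx pairs the CD8+ and CD4+ groups did not overlap. Zbtb7b-203 held 0.92% to 1.85% of the Zbtb7b counts in Cat-Tg post-tx CD8+ and 70.3% to 86.2% in Cat-Tg post-tx CD4+ libraries. Zbtb7b-202 held 75.1% to 95.3% in these CD8+ and 0% to 12.1% in these CD4+ libraries. In WT post-tx, Zbtb7b-203 held 0.86% to 50.4% in CD8+ and 52% to 77.5% in CD4+ libraries. Zbtb7b-202 held 48.6% to 83% in those CD8+ and 5.58% to 33.9% in those CD4+ libraries. A match or its lack is a description of letters and not of binding.

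Gata3 was called higher in CD4+ than in CD8+ cells in both post-tx pairs and in neither pre-tx pair. The change of its CD8-CD4 difference with time in Cat-Tg cells was -1.21 ± 0.458 (SE, edgeR adjusted p = 0.29) and did not pass. Pre-tx Cat-Tg libraries held 24.2, 36.2 and 38.6 CPM in CD8+ and 44.6, 42.9 and 43 CPM in CD4+ cells, a log2 difference of -0.40 ± 0.324 (SE, edgeR adjusted p = 0.839) between groups that did not overlap. Post-tx Cat-Tg libraries held 209, 203 and 132 CPM in CD8+ and 914, 345 and 396 CPM in CD4+ cells, a difference of -1.61 ± 0.33 (adjusted p = 0.00281). The first Cat-Tg CD4+ post-tx library stood apart, and it also had the smallest total (11135713 counts) and the highest Zbtb7b. Without it the difference was -0.89 and no longer called (adjusted p = 0.0961), and without the third Cat-Tg CD8+ post-tx library it was -1.36 and not called either. In WT post-tx, Gata3 stood at 27.2, 37 and 27 CPM in CD8+ and at 302, 257 and 312 CPM in CD4+ cells, a difference of -3.26 ± 0.352 (adjusted p = 4.75e-06) that was called with each library left out. Whether the genotypes differ in this contrast was tested: the Cat-Tg difference less the WT difference was 1.65 ± 0.459 (adjusted p = 0.0932) and did not pass, while it reached 2.18 and was called without the first Cat-Tg CD4+ post-tx library.

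Satb1, like Gata3, was called lower in CD8+ than in CD4+ cells in WT post-tx. Post-tx WT libraries held 21.7, 14.5 and 20.9 CPM in CD8+ and 77.9, 102 and 117 CPM in CD4+ cells, a log2 difference of -2.38 ± 0.334 (SE, edgeR adjusted p = 4.45e-05), with no overlap. Cat-Tg post-tx libraries held 73.4, 46.4 and 38.9 CPM in CD8+ and 73.5, 88.1 and 129 CPM in CD4+ cells. Their groups all but met, and the difference of -0.87 ± 0.32 did not pass in edgeR with TMM scaling (adjusted p = 0.117). It was called by DESeq2 (-0.86, adjusted p = 0.0419) and on the T cell scaling (-1.67, edgeR adjusted p = 0.00459). Pre-tx Cat-Tg libraries overlapped, at 96.9, 81.1 and 92.1 CPM in CD8+ and 108, 109 and 70.9 CPM in CD4+ cells (log2 difference -0.09 ± 0.317, adjusted p = 0.992). Libraries labelled WT pre-tx held 116, 74.7 and 94.3 CPM (CD8+) and 46.3, 55.6 and 37.7 CPM (CD4+), the reverse order, with a difference of 1.03 ± 0.321 (adjusted p = 0.188). The genotype difference of the post-tx contrast was 1.51 ± 0.452 (adjusted p = 0.12), which did not pass in edgeR and passed in DESeq2 (adjusted p = 0.0414).

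**Figure D4:**
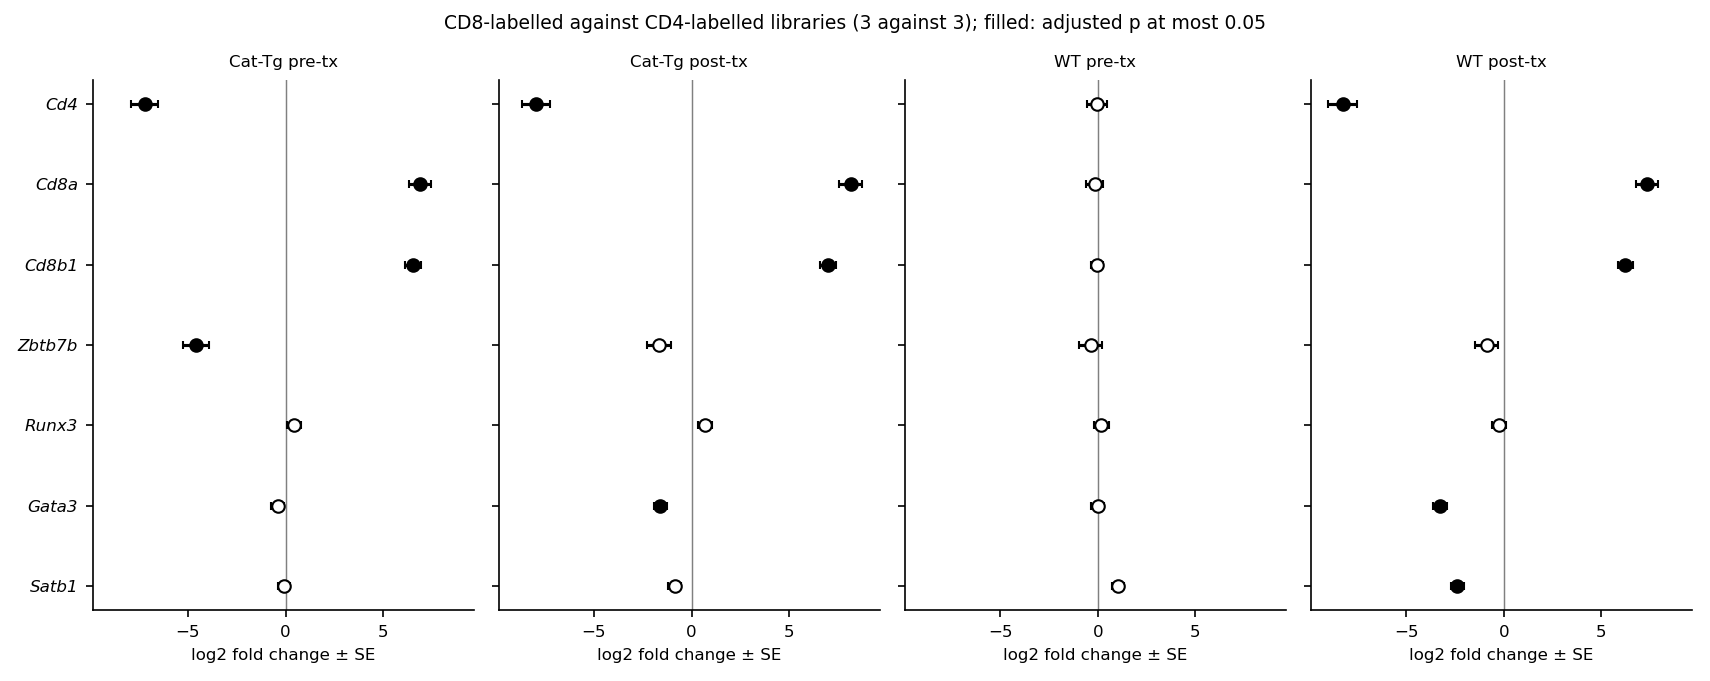
Log2 fold changes of CD8-labelled against CD4-labelled libraries (points, with bars of 1 SE) for the 7 genes in the 4 pairs of groups; filled points passed the adjusted p threshold. The coreceptor genes lie beyond 6 on either side in 3 panels and at 0 in WT pre-tx, Zbtb7b is filled in Cat-Tg pre-tx, Gata3 in both post-tx panels and Satb1 in WT post-tx.

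Per length, the coreceptor genes of the lineage averaged above the factors in post-tx cells, though not in every library. In Cat-Tg CD4+ post-tx cells Cd4 ran from 254 to 335 TPM and Gata3 from 140 to 403 TPM. In Cat-Tg CD8+ post-tx cells Cd8b1 averaged 1379 ± 27.6 TPM (SD, n = 3) and Cd8a 279 ± 13.3 TPM, beside 52.4 ± 13.5 TPM for Gata3, 46.2 ± 3.84 TPM for Runx3, 14.6 ± 5.99 TPM for Satb1 and 6.1 ± 1.09 TPM for Zbtb7b. In WT CD8+ post-tx cells Runx3 (15.2 ± 9.28 TPM) stood first among the factors, above Gata3 (6.57 ± 0.824 TPM), Zbtb7b (4.26 ± 2.84 TPM) and Satb1 (2.75 ± 0.872 TPM). In WT CD4+ post-tx cells the order was Gata3 (133 ± 7.43 TPM), Runx3 (43.5 ± 7.28 TPM), Satb1 (42.9 ± 6.29 TPM) and Zbtb7b (18.1 ± 2.19 TPM), below Cd4 at 438 ± 21.7 TPM. Runx3 and Satb1 could not be ordered there beyond their spread.

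Ordered by mean CPM over the 8 groups, Cd4 was highest in WT CD4+ post-tx (948 ± 124 CPM, SD, n = 3) and Cat-Tg CD4+ post-tx (811 ± 64.8 CPM), neighbours that overlapped, then in Cat-Tg CD4+ pre-tx (277 ± 72 CPM) and the WT pre-tx pair, and lowest in the 3 overlapping CD8+ groups. Cd8a ran in the order Cat-Tg CD8+ pre-tx, Cat-Tg CD8+ post-tx and WT CD8+ post-tx, each overlapping the next, then the WT pre-tx pair, then the 3 CD4+ groups. Gata3 gave the clearest steps, with no overlap from Cat-Tg CD4+ post-tx to WT CD4+ post-tx, Cat-Tg CD8+ post-tx, Cat-Tg CD4+ pre-tx and Cat-Tg CD8+ pre-tx, and with each of the last 4 groups overlapping the next. Runx3 was highest in Cat-Tg CD8+ post-tx (207 ± 31.2 CPM), above the other post-tx groups in mean though overlapping WT CD8+ post-tx, which reached 187 CPM, and lowest in Cat-Tg CD4+ pre-tx (28.2 ± 3.92 CPM). Satb1 formed a block of 5 overlapping groups between 90 and 99.1 CPM, with WT CD8+ post-tx lowest at 19 ± 3.92 CPM. Zbtb7b ran from 62.7 ± 35.3 CPM in Cat-Tg CD4+ post-tx to 1.41 ± 1.07 CPM in Cat-Tg CD8+ pre-tx.

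Other genes of the 2 lineages were read from 3 lists. Of 8 helper-associated genes, 5 were lower in CD8+ than in CD4+ libraries in Cat-Tg pre-tx, 5 in Cat-Tg post-tx and 5 in WT post-tx, with median log2 fold changes of -2.66, -1.57 and -2.30, beside -0.05, 0.06 and -0.03 over all genes tested. In these pairs 1.53%, 6% and 13.1% of all genes tested were called. Cd40lg, the ligand by which helper cells activate B cells, averaged 1.62 ± 0.866 CPM (SD, n = 3) in CD8+ and 39.1 ± 4.18 CPM in CD4+ Cat-Tg pre-tx libraries, and Tnfrsf4, which encodes the costimulatory receptor OX40, 4.28 ± 2.47 and 131 ± 8.91 CPM. Of 9 cytotoxic-associated genes, 7, 6 and 6 were higher in CD8+ libraries of the same pairs, with medians of 2.61, 1.95 and 1.77. Prf1, which encodes perforin, averaged 744 ± 98.1 CPM in CD8+ and 68.6 ± 21.7 CPM in CD4+ Cat-Tg post-tx libraries, and Crtam 78.8 ± 11.8 and 0.899 ± 1.1 CPM. In WT pre-tx the medians of the 2 lists were 0.37 and -0.21, beside -0.09 over all genes. Of 24 regulators of coreceptor and lineage choice, 1 was lower in CD8+ cells in Cat-Tg post-tx (Runx1, 21.7 ± 6.47 against 57.2 ± 16.2 CPM), and 8 were lower in WT post-tx. The medians of this list were -0.12 in Cat-Tg pre-tx, -0.08 in Cat-Tg post-tx and -0.92 in WT post-tx. Myeloid genes were lower in CD8+ than in CD4+ libraries in the same pairs (6, 8 and 10 of 12), and the part of myeloid RNA in these differences was not tested. Among the 8 regulators, Tet3, a methylcytosine dioxygenase, averaged 3.54 ± 1.18 CPM in CD8+ and 38.5 ± 5.06 CPM in CD4+ cells, and Tcf7, which encodes the β-catenin partner TCF-1, 17.2 ± 7.58 and 132 ± 11.5 CPM.

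The next comparison asked how the genes differed between post-tx and pre-tx cells. In Cat-Tg CD8+ cells the 3 lineage factors Zbtb7b, Runx3 and Gata3 rose, and Satb1 and the coreceptor genes did not pass the test. Zbtb7b went from a mean of 1.41 to 19.6 CPM (log2 fold change 3.80 ± 0.851, SE, edgeR adjusted p = 0.00911), Runx3 from 37.6 to 207 CPM (2.47 ± 0.48, adjusted p = 0.00394) and Gata3 from 33 to 181 CPM (2.47 ± 0.389, adjusted p = 0.000931). In all 3 the lowest post-tx library was above the highest pre-tx library. Satb1 averaged 90 and 52.9 CPM (-0.75 ± 0.39, adjusted p = 0.182). Cd4, Cd8a and Cd8b1 overlapped between the times. The count of 3 of 7 stands beside 13.9% of the 15960 genes tested in CD8+ cells.

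Cat-Tg CD4+ cells shared the rise of Runx3 and Gata3, each by its own test. Gata3 went from 43.5 to 552 CPM (3.35 ± 0.344, SE, edgeR adjusted p = 8.01e-06) and Runx3 from 28.2 to 130 CPM (1.88 ± 0.253, adjusted p = 5.76e-05), both with no overlap. Cd4 rose from 277 to 811 CPM (1.23 ± 0.274, adjusted p = 0.00258). Cd8a fell from 6.51 to 2.52 CPM (-1.73 ± 0.531, adjusted p = 0.0158) with overlapping libraries, and lost its call without the first Cat-Tg CD4+ pre-tx library (-1.49) or without the third Cat-Tg CD4+ post-tx library (-1.41). Cd8a also lost its call on the T cell scaling (-1.13, edgeR adjusted p = 0.0915) and with length-scaled TPM (-1.20, adjusted p = 0.072). In a fit of the libraries compared it was -1.55 and not called (adjusted p = 0.0583). Zbtb7b gave 0.58 ± 0.339 (adjusted p = 0.169), which was -0.01 without the first Cat-Tg CD4+ post-tx library. It was called with T cell sizes (1.15, adjusted p = 0.00952), no filter (0.89, adjusted p = 0.0493) and length-scaled TPM (1.03, adjusted p = 0.0449). In the same comparison 7 of 12 myeloid and 5 of 6 red cell genes rose, and 13 of 14 B cell and 4 of 12 T cell genes fell; the part of other cells in these values was not tested. In all, 4 of the 7 genes were called, where 45.2% of the 17227 genes tested were called.

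In WT cells this comparison sets post-tx cells beside the mixed pre-tx libraries. WT CD8+ cells had lower Cd4 post-tx (-4.80 ± 0.823, SE) and higher Cd8a (2.20 ± 0.368) and Cd8b1 (2.54 ± 0.314), with edgeR adjusted p of 0.000662, 0.000529 and 4.73e-05. The 14 B cell genes all fell in the same comparison, and 10 of 12 T cell genes rose. With library sizes taken from the T cell list, which moved the genes read here by a median of -2.63, Cd8a (-0.48) and Cd8b1 (-0.09) turned in direction. Satb1 fell from 95.1 to 19 CPM (-2.21 ± 0.406, adjusted p = 0.00109), and by more on that scaling (-4.73). Gata3 averaged 23.4 and 30.4 CPM (0.50 ± 0.37, adjusted p = 0.37). On the T cell scaling Gata3 was -2.12 and called lower post-tx (edgeR adjusted p = 0.000675). The 4 genes called compare with 23.6% of all genes. WT CD4+ cells had higher Cd4 (3.44 ± 0.297), Gata3 (3.75 ± 0.351), Runx3 (1.00 ± 0.247) and Satb1 (1.22 ± 0.277) post-tx, and lower Cd8a (-5.24 ± 0.591) and Cd8b1 (-3.69 ± 0.387). These 6 called genes compare with 24.3% of all genes. Gata3 went from 23.7 to 290 CPM and was called on the T cell scaling as well, while Runx3 (-0.32), Satb1 (-0.01) and the uncalled Zbtb7b (0.83 ± 0.34, adjusted p = 0.0868, and -0.47) turned in direction. Runx3 lost its call without the first WT CD4+ pre-tx library (0.80), and Satb1 without the third (0.92).

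**Figure D5:**
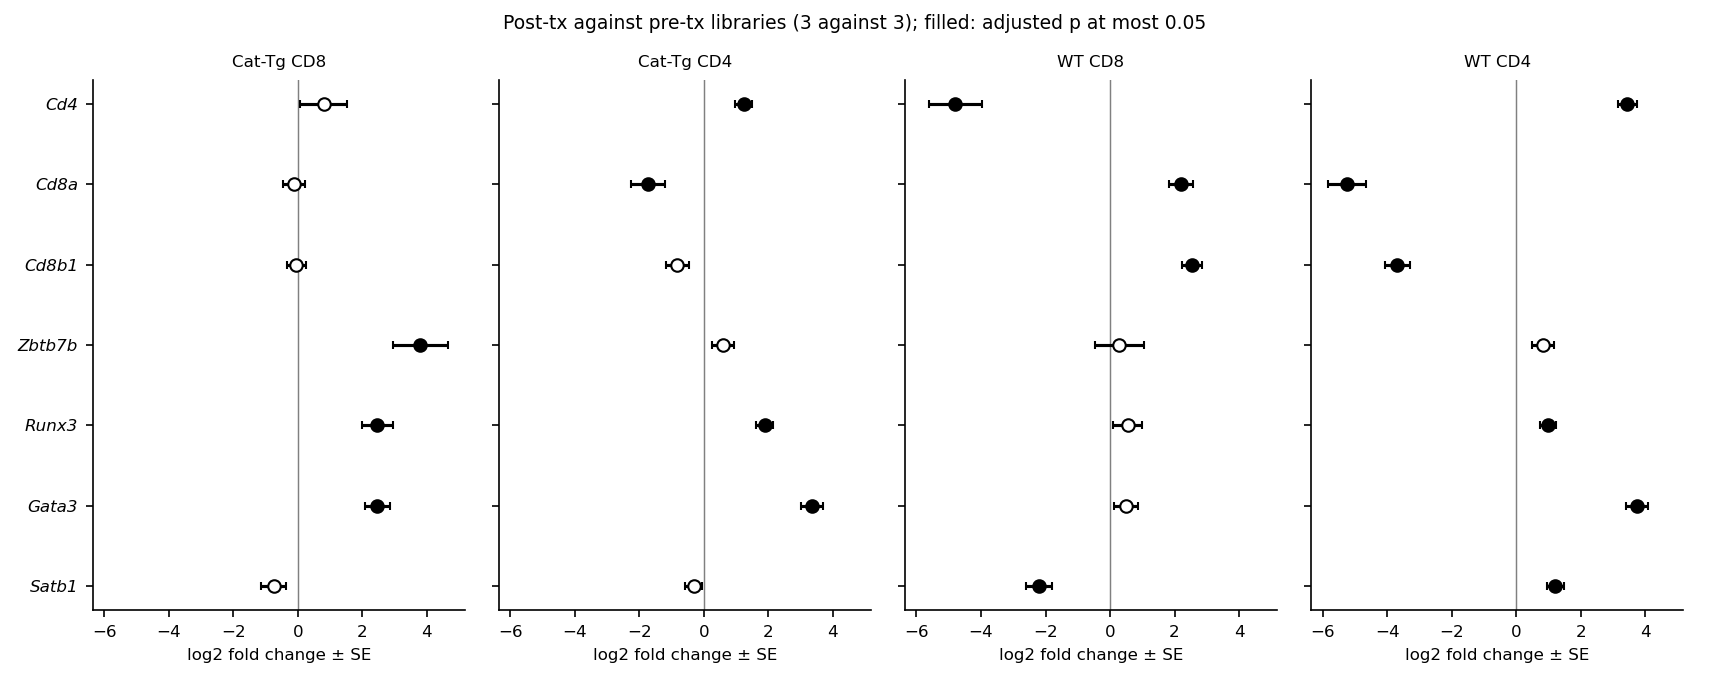
Log2 fold changes of post-tx against pre-tx libraries (points, with bars of 1 SE) for the 7 genes in Cat-Tg CD8+, Cat-Tg CD4+, WT CD8+ and WT CD4+ cells; filled points passed the adjusted p threshold. Gata3 is filled and between 2.47 and 3.75 in every panel but WT CD8+, and the large coreceptor values are in the WT panels, whose pre-tx libraries were mixed.

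Between genotypes, 1 of the 7 genes was called in CD8+ post-tx cells. Gata3 stood at 209, 203 and 132 CPM in Cat-Tg CD8+ post-tx libraries and at 27.2, 37 and 27 CPM in WT CD8+ post-tx libraries. Every Cat-Tg library was over 3 times the highest WT library. The log2 fold change was 2.49 ± 0.389 (SE, edgeR adjusted p = 0.0119), against 1.67% of all genes called. It was 2.37 and 2.42, and not called, without the first or the second Cat-Tg CD8+ post-tx library, and 2.52 with an adjusted p of 0.0582 when only the 6 libraries compared were fitted. The T cell list varied among the WT CD8+ post-tx libraries, from 8532 to 16411 CPM, so the ratio to that list was also taken within each library. On that ratio Gata3 differed by 2.66 on the log2 scale, with SDs of 0.394 in Cat-Tg and 0.271 in WT and no overlap. Satb1 differed by 1.55 (SDs 0.517 and 0.778) and Runx3 by 1.43 (SDs 0.175 and 0.652) on the same ratio, also with no overlap. Satb1 averaged 52.9 and 19 CPM, with no overlap (1.39 ± 0.396, adjusted p = 0.0818), and was called without the third Cat-Tg (1.68) or the first WT library (1.62). Runx3 averaged 207 and 98.4 CPM with overlap (0.99 ± 0.459, adjusted p = 0.256), and was called at 1.95 without the second WT library. The coreceptor genes and Zbtb7b ran from -0.31 to 0.46 and did not pass. Summed myeloid genes ran from 352 to 707 CPM in Cat-Tg and from 184 to 245 CPM in WT CD8+ post-tx libraries. Summed red cell genes ran from 2931 to 4411 CPM and from 252 to 2057 CPM. Of these genes, 1 of 12 myeloid and 0 of 6 red cell genes were called higher in Cat-Tg. The part of other cells in the differences above was not tested.

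In CD4+ post-tx cells none of the 7 genes was called in edgeR, where 10.2% of all genes were. Gata3 came nearest, at 552 against 290 CPM (0.71 ± 0.315, unadjusted p = 0.038, edgeR adjusted p = 0.172), and was the only one of the 7 with an unadjusted p under 0.05. Without the first Cat-Tg CD4+ post-tx library it was 0.10 (adjusted p = 0.848). DESeq2 called 0 of the 7 as well, and Gata3 was called at 1.03 on the T cell scaling. Among the lists, Tcf7 (69.7 ± 13.6 against 132 ± 11.5 CPM, SD, n = 3) and Cxcr5 (12.2 ± 1.64 against 50.4 ± 11.6 CPM) were lower, and Foxp3, the factor of regulatory T cells, was higher (57.5 ± 19.8 against 15.3 ± 4.49 CPM) in Cat-Tg CD4+ post-tx libraries. Red cell genes (6 of 6) and myeloid genes (8 of 12) were also higher there, and their part in these differences was not tested. In CD8+ post-tx libraries Tet3 (28.5 ± 12.2 against 3.54 ± 1.18 CPM) and Dnmt1, the maintenance DNA methyltransferase (512 ± 174 against 116 ± 43.4 CPM), were the 2 of 24 regulators that passed, both higher in Cat-Tg.

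Pre-tx, the genotypes were compared across the mixed WT libraries. Cat-Tg CD8+ libraries had lower Cd4 (-5.61 ± 0.855, SE) and Zbtb7b (-3.83 ± 0.852, edgeR adjusted p = 0.0112) and higher Cd8a (2.59 ± 0.374) and Cd8b1 (3.05 ± 0.32) than libraries labelled WT CD8+. These 4 called genes compare with 8.97% of all genes. Cd8a lost its call on the T cell scaling (0.30, adjusted p = 0.359), and Cd4 lost its call with length-scaled TPM (-3.53, adjusted p = 0.0705). In the same contrast all 14 B cell genes were lower in Cat-Tg and 7 of 12 T cell genes were higher. Cat-Tg CD4+ libraries had lower Cd8a (-4.23 ± 0.564), Cd8b1 (-3.31 ± 0.38) and Runx3 (-0.95 ± 0.247, adjusted p = 0.0126), and higher Cd4 (1.76 ± 0.278), Gata3 (1.11 ± 0.32, adjusted p = 0.0217) and Satb1 (1.27 ± 0.277, adjusted p = 0.00402), so that 6 of 7 were called against 20.4% of all genes. On the T cell scaling Gata3 (-0.40) and Satb1 (-0.23) turned in direction, and Cd4 lost its call (0.29, adjusted p = 0.374). Gata3 was not called by DESeq2 (0.91, adjusted p = 0.0557) or limma-voom (1.13, adjusted p = 0.0776). Gata3 lost its call with 4 of the 6 libraries left out in turn (0.74 to 1.12), Runx3 without the second Cat-Tg CD4+ pre-tx library (-0.83) and Satb1 without the third WT CD4+ pre-tx library (0.92). The part of the B cell RNA in these differences was not tested.

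In the tests of differences between contrasts, each value called rests in part on WT pre-tx libraries. The CD8-CD4 difference differed between the genotypes pre-tx for Cd4, Cd8a, Cd8b1 and Zbtb7b (4 of 7, against 1.18% of all genes; Zbtb7b lost its call with the replicate block, at -4.54 and an adjusted p of 0.0539), and post-tx for 0 of 7 (against 0.629%), where Gata3 and Satb1 had unadjusted p under 0.05. Within Cat-Tg it differed between the times for 0 of 7 (against 0.949%), where Gata3 and Zbtb7b had unadjusted p under 0.05. The Cat-Tg effect differed between post-tx and pre-tx for Cd4, Cd8a, Cd8b1 and Gata3 in CD8+ cells (10.7% of all genes) and for Cd4, Cd8a, Cd8b1 and Satb1 in CD4+ cells (21.4%). On the T cell scaling Cd8b1 in CD8+ cells (-0.13) and Cd4 in CD4+ cells (-0.34) lost their calls, and Cd8a in CD8+ cells (0.20) and Satb1 in CD4+ cells (0.34) turned in direction. Cd4 in CD8+ cells lost its call with length-scaled TPM (2.41, edgeR adjusted p = 0.346). For Gata3 in CD8+ cells the change of the effect was 1.97 ± 0.527 (SE, edgeR adjusted p = 0.026). The effect went from 0.52 ± 0.37 pre-tx (-1.71 and called on the T cell scaling, adjusted p = 0.00313) to 2.49 ± 0.389 post-tx. Zbtb7b in the same test gave 3.52 ± 1.11 (adjusted p = 0.0535) and did not pass. It was called with DESeq2 (3.37), limma-voom (4.46), no filter (3.70), length-scaled TPM (4.24) and T cell sizes (6.09), with adjusted p from 0.00081 to 0.0289, and without the second WT CD8+ post-tx library (4.22).

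The genes whose levels ran most like each member were taken over the 24 libraries, and again over the 18 without WT pre-tx, from 8522 protein-coding genes averaging at least 10 CPM. The measure was Pearson's r of log2 CPM, a description over libraries that share groups, depth and cell source. For Cd4 they were Mertk (r = 0.914), Abcc3 (0.902) and Cd40lg (0.894) over 24, and Maf (0.955), Mertk (0.919) and Cd40lg (0.915) over 18 libraries. Cd8a ran most like Haao (0.861 and 0.922), and Cd8b1 like Ly6c2 (0.858) over 24 and Haao (0.954) over 18. Runx3 ran most like Prex1 on both counts (0.965 and 0.976). Gata3 was led by Lcp2 (0.929), then by Zmiz1 (0.957). Satb1 was led by Pdcd4 (0.907), then by Slfn1 (0.945), and Zbtb7b by Crip2 (0.883), then by Inppl1 (0.937). Among the members themselves, Cd8a and Cd8b1 gave r = 0.981 over 24 libraries, Cd4 and Cd8b1 -0.944, and Runx3 and Cd4 0.043.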

How the data were processed

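RNA of cells that the paper describes as sorted spleen T cells was sequenced in 24 libraries (SMART-Seq HT and Nextera XT, which do not mark strand). The authors pseudoaligned the reads with kallisto 0.46.2, and the deposited tables list 117497 transcripts, each with its estimated count and its TPM. The submitters' processing notes name the build mm9. The index release is not given in the sources used here. The study itself used limma.

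Transcripts were matched by identifier, version left off, to GENCODE M21 (116374 matched, 1123 not matched and left out; 99.57% to 99.75% of each library's counts were kept). Estimated counts were summed to 35817 gene symbols and rounded. Library totals ran from 11135713 to 50519825. TPM was summed over transcripts without further scaling. Groups came from the sample labels.

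Genes above 1 CPM in 3 or more libraries were tested with edgeR 4.0.16 (R 4.3.3; TMM, robust quasi-likelihood, Benjamini-Hochberg over all genes tested, called at an adjusted p of at most 0.05). A fit of all 24 libraries gave CD8 against CD4 contrasts, and fits of 12 libraries per cell type gave genotype and time contrasts. Alternatives were DESeq2 1.42.0, limma-voom 3.58.1, other library sizes, filters and samples, and a replicate block. The scripts were tested on simulated data. The genes named are the 7 members, at most 3 called genes of each list per comparison with the largest absolute log2 fold change among those averaging at least 10 CPM in the higher group, and for each member the 3 protein-coding genes most like it. Members and lists were chosen with earlier results of these data known.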

Additional observations from a re-analysis of the deposited data

Results flagged for a closer look

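In 12 results the effect of a contrast differed between groups by a test of the difference itself (edgeR, adjusted over all genes). Every one of the 12 uses WT pre-tx libraries, which held B cell RNA and mixed coreceptor transcripts, and the part of that RNA was not tested. The CD8-CD4 difference of log2 levels was lower in Cat-Tg than in WT pre-tx cells by -7.18 for Cd4 and -4.22 for Zbtb7b, and higher by 7.03 for Cd8a and 6.57 for Cd8b1. With the replicate block Zbtb7b was -4.54 and not called (edgeR adjusted p = 0.0539). From pre-tx to post-tx the Cat-Tg effect in CD8+ cells differed by 5.60 for Cd4, -2.32 for Cd8a, -2.59 for Cd8b1 and 1.97 for Gata3. In CD4+ cells it differed by -2.21 for Cd4, 3.51 for Cd8a, 2.87 for Cd8b1 and -1.54 for Satb1. On the T cell scaling Cd8b1 in CD8+ cells was -0.13 (adjusted p = 0.811) and Cd4 in CD4+ cells -0.34 (adjusted p = 0.538), and with length-scaled TPM Cd4 in CD8+ cells was 2.41 (adjusted p = 0.346), none of them called. On the T cell scaling Cd8a in CD8+ cells (0.20) and Satb1 in CD4+ cells (0.34) turned in direction. With no filter Gata3 (2.13, adjusted p = 0.0509) and Satb1 (-1.22, adjusted p = 0.0615) were not called. The Gata3 value was not called without the first or the second Cat-Tg CD8+ post-tx library (1.85 and 1.90) or without the first library labelled WT CD8+ pre-tx (1.92). The Satb1 value was not called without the first or the third library labelled WT CD4+ pre-tx (-1.10 and -0.98).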

How the results depend on the processing

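The cause of the changes below was not tested. With library sizes taken from the T cell list, Runx3 in CD8 against CD4 of Cat-Tg post-tx turned to -0.13. In Cat-Tg against WT pre-tx, Gata3 turned to -0.40 and Satb1 to -0.23 in CD4+ cells. Gata3 turned to -1.71 in CD8+ cells and was called (edgeR adjusted p = 0.00313). The Cat-Tg effect turned to 0.34 for Satb1 in CD4+ and to 0.20 for Cd8a in CD8+ cells. Post-tx against pre-tx in WT turned for Zbtb7b (-0.47), Runx3 (-0.32) and Satb1 (-0.01) in CD4+ cells. In CD8+ cells it turned for Cd8a (-0.48), Cd8b1 (-0.09) and Gata3 (-2.12, called, edgeR adjusted p = 0.000675). In WT pre-tx, where CD8 against CD4 was near 0, Cd4 gave 0.62 on that scaling, 0.15 with no filter, 0.09 with length-scaled TPM, 0.03 with the replicate block and with limma-voom, and 0.01 in a fit of the libraries compared. Cd8a gave 0.48, 0.09 and 0.09, and Cd8b1 0.59, 0.19 and 0.14, with T cell sizes, no filter and length-scaled TPM, and Cd8b1 0.02 in a fit of the libraries compared.

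The number of the 7 genes called went from 0 to 1 in WT pre-tx CD8 against CD4 and in the Cat-Tg time change of the CD8-CD4 difference (each with DESeq2 and with T cell sizes), in the post-tx genotype change of that difference (DESeq2) and in Cat-Tg against WT CD4+ post-tx (T cell sizes). In CD8+ post-tx it went from 1 to 2 with DESeq2 and with length-scaled TPM, and to 0 in a fit of the libraries compared. Changes of the count that were smaller in proportion are not listed. A further threshold of 2 on the absolute log2 fold change left 2 genes in Cat-Tg against WT CD4+ pre-tx and 1 in post-tx against pre-tx Cat-Tg CD4+. The share of Cd8a moved to 60.9% (WT CD4+) and 57.4% (WT CD8+) pre-tx in CPM. Without the retained-intron transcript, an alternative chosen after seeing the data, it was 37.7% and 32.3% there, 96.2% in Cat-Tg CD8+ pre-tx, 98.7% in Cat-Tg CD8+ post-tx, 95.2% in WT CD8+ post-tx and 0.151% in Cat-Tg CD4+ post-tx.

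With each library left out in turn, the count of genes called ran from 0 to 2 in Cat-Tg against WT CD8+ post-tx and from 0 to 1 in the post-tx genotype change of the CD8-CD4 difference. For the change of the Cat-Tg effect with time it ran from 3 to 6 in CD8+ and from 4 to 5 in CD4+ cells. It ran from 4 to 6 in Cat-Tg against WT CD4+ pre-tx and from 3 to 4 in CD8 against CD4 of Cat-Tg post-tx. In post-tx against pre-tx CD4+ cells it ran from 3 to 5 in Cat-Tg and from 5 to 6 in WT. Log2 fold changes of CD8 against CD4 crossed 0 for Runx3 in WT post-tx (-0.90 to 0.25), for Satb1 in Cat-Tg pre-tx (-0.26 to 0.02) and in WT pre-tx for Cd4 (-0.14 to 0.35), Cd8a (-0.28 to 0.02) and Cd8b1 (-0.07 to 0.04). Zbtb7b in post-tx against pre-tx Cat-Tg CD4+ ran from -0.01 to 0.83.

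Same-numbered libraries did not deviate together (r from -0.263 to 0.176), so numbers were not read as pairs. With the replicate block the CD8-CD4 difference between genotypes pre-tx for Zbtb7b was -4.54 (edgeR adjusted p = 0.0539) and lost its call, and no other call changed.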
